A study of Mus musculus with 8 samples.

Results

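The 9 genes described here encode parts of the attachment of basal epithelial cells to the basement membrane: Lama3 and Lamb3 (chains of laminin-332), Col17a1 (the transmembrane collagen of hemidesmosomes), and the integrin subunits Itga6, Itgb4, Itgb1, Itga3, Itga2 and Itgb3. They were chosen by gene name among the non-control probes of each array, which gave 13 of 55681 probes. Of these, 12 probes of 8 genes passed the filter on dim probes (signal well above background on 4 or more arrays) and were tested. Messenger RNA was measured on 8 one-colour Agilent arrays of MAM326, a cultured mouse mammary cancer cell line grown with serum and sorted by fluorescence 2 days after seeding. Each gate gave 4 arrays, labelled GFP-positive or GFP-negative, and the study describes 4 independent experiments at different passages, without saying which array came from which. All 8 arrays come from the same line and differ by the GFP gate alone as far as the labels go. The sources used here do not give the promoter that drives GFP, or whether the line is a clone. The study addressed the transcripts of cancer stem cells.

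In mammary epithelium the basal layer secretes laminin-332, to which Lama3 and Lamb3 contribute chains, into the basement membrane. The Itga6 and Itgb4 products pair as its hemidesmosomal receptor, which is tied to keratin filaments through plectin and dystonin, with collagen XVII as a further transmembrane component. The Itga3 and Itgb1 products pair as a second laminin receptor linked to actin, the Itga2 product pairs with Itgb1 to bind collagen, and the Itgb3 product pairs with αv to bind vitronectin and fibronectin. Surface Itga6 and Itgb1 have long been used to sort mammary basal and stem cells.

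Levels below are log2 processed signals relative to the 75th percentile of the array, so that 0 is that percentile. A difference is the GFP-positive minus the GFP-negative mean on that scale, and its error is the standard error of the limma fit. Levels of different probes are not compared. The 8 arrays lie on 1 slide in 2 rows. Row 1 held GFP-positive replicates 1 and 3 with GFP-negative replicates 2 and 4, and row 2 held the other 4. Between 45.1% and 57.4% of probes were well above background, the most on GFP-positive replicate 3, which also had the highest 75th percentile of signal. Of 11 basal and luminal epithelial markers, 10 were well above background on every array, the exception being Myh11. Of 6 leukocyte markers, Cd3e, Csf1r and Itgam were so on all 8 arrays, and Ptprc and Adgre1 on 1. Of 4 endothelial markers, Kdr was so on 8, Pecam1 on 6, and Cdh5 and Tek on 0.

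None of the 8 measured members passed an adjusted p of 0.05 in limma (0 of 8, against 2.55% of all 19776 genes tested, 1.82% higher and 0.733% lower). Itgb4 was the 1 member with an unadjusted p under 0.05, which 22.9% of all genes had. The members' median difference was 0.46, against -0.06 over all genes, with 6 members positive and 2 negative. Itgb4, Lama3, Itga2 and Lamb3 had the largest differences and also spread widely within each group. Itgb1 and Itgb3 had the smallest. Of the 12 probes tested, 0 passed with adjustment over all 27591 probes (background 2%), and 1 did at an unadjusted p under 0.05 in limma.

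**Figure D1:**
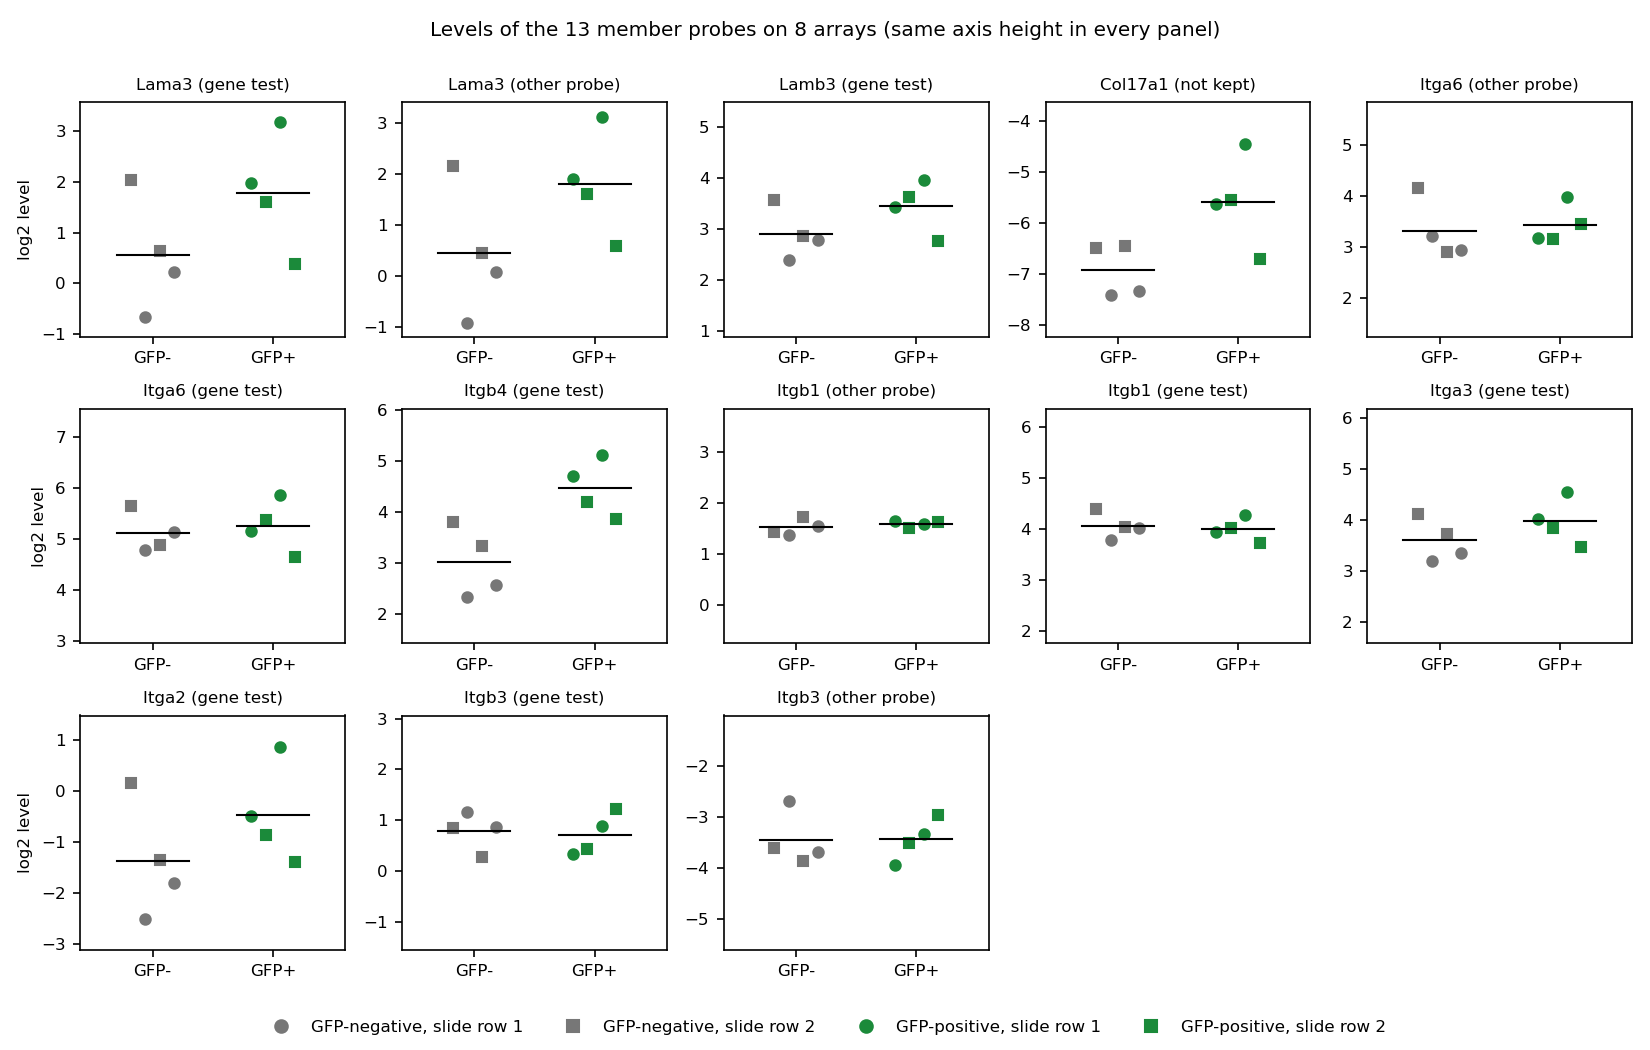
Log2 level of each of the 13 member probes (vertical axis, log2 units relative to the 75th percentile of the array) on the 4 GFP-negative and 4 GFP-positive arrays, with a bar at each group mean. Circles are slide row 1 and squares slide row 2. The groups of Itgb4 do not overlap, while those of the other tested probes do.

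Lama3 encodes the alpha chain of laminin-332, which carries the domain bound by integrins. Its brighter probe was at 2.04, -0.66, 0.64 and 0.23 on GFP-negative replicates 1 to 4 and at 1.96, 1.61, 3.17 and 0.37 on GFP-positive replicates 1 to 4. GFP-negative replicate 1 was above 3 of the GFP-positive arrays, and GFP-positive replicate 4 was below the GFP-negative mean, so the groups overlapped. The means were 1.78 ± 1.15 and 0.56 ± 1.13 (SD, n = 4), a difference of 1.21 ± 0.70 (adjusted p = 0.338). Leaving out GFP-positive replicate 3 gave 0.75, and leaving out GFP-negative replicate 2 gave 0.81. The range over the 8 arrays was 3.83, a 14.2-fold span, and 0.85% of all genes had a range as wide. The other Lama3 probe, on the same transcript, gave the same order of arrays except that GFP-positive replicate 4 (0.59) was above GFP-negative replicate 3 (0.46), and differed by 1.36 ± 0.72. Both probes lie on chromosome 18.

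Lamb3 encodes the beta chain of the same laminin and was probed at chr1:195170009-195170068 (mm9, plus strand). Its levels were 3.57, 2.40, 2.86 and 2.78 on the GFP-negative arrays and 3.43, 3.64, 3.97 and 2.77 on the GFP-positive arrays, in replicate order. GFP-positive replicates 2 and 3 were above every GFP-negative array, and GFP-positive replicate 4 was level with GFP-negative replicate 4. The difference was 0.55 ± 0.31, or 1.46-fold (adjusted p = 0.328). Lama3 and Lamb3 were both lowest on GFP-negative replicate 2 and highest on GFP-positive replicate 3.

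Itgb4 encodes the hemidesmosomal integrin subunit with the long cytoplasmic tail that recruits plectin, and was probed at chr11:115869666-115869725 (mm9, plus strand). Its levels were 3.80, 2.33, 3.34 and 2.58 on the GFP-negative arrays. They were 4.70, 4.20, 5.12 and 3.86 on the GFP-positive arrays. Each GFP-positive array was above each GFP-negative array, which was true of no other measured member, while 16.6% of all genes had groups that did not overlap. The closest pair were GFP-positive replicate 4 and GFP-negative replicate 1. The means were 4.47 ± 0.55 and 3.01 ± 0.68, a difference of 1.46 ± 0.38 or 2.75-fold. Its range of 2.79 over the 8 arrays was reached by 2.7% of all genes. It did not pass in the fit of all arrays (adjusted p = 0.0817), and its adjusted p ran from 0.0713 to 0.223 when each array was left out. It passed with array weights (1.59, adjusted p = 0.0317), a setting that called 9.08% of all genes. It also passed with the replicate number as a block (1.46, adjusted p = 0.0481), a setting that called 1.09% of all genes.

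Itga6, the partner of Itgb4, did not differ in the same way. Its levels were 5.65, 4.78, 4.88 and 5.14 on the GFP-negative arrays and 5.16, 5.38, 5.85 and 4.64 on the GFP-positive arrays. GFP-positive replicate 3 and GFP-negative replicate 1 were the highest, and the lowest of all was GFP-positive replicate 4. The difference was 0.15 ± 0.28 (adjusted p = 0.797), and that of the second probe, on chromosome 2 from 71690633 to 71690692 (mm9), was 0.13 ± 0.31. Both signs turned without GFP-positive replicate 3, at -0.053 and -0.052. Whether Itgb4 and Itga6 differed from each other was not tested. Col17a1 was well above background on 1 of 8 arrays, GFP-positive replicate 3, and on 0 of the 4 GFP-negative arrays. It was left out of the fit with the filter on dim probes. No fold is given because the GFP-positive mean of -5.58 lay below the level of -5.17 that the GFP-negative arrays could have registered. Without that filter it was included, and 0 members passed (2 at an unadjusted p under 0.05 in limma, against 1 with the filter).

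Itga3, the alpha subunit of the actin-linked laminin receptor, was at 4.11, 3.19, 3.72 and 3.36 on the GFP-negative arrays and at 4.01, 3.84, 4.55 and 3.46 on the GFP-positive arrays. GFP-negative replicate 1 was above 3 of the 4 GFP-positive arrays. The difference was 0.37 ± 0.27 (adjusted p = 0.449). Leaving out GFP-positive replicate 3 gave 0.18, and leaving out GFP-negative replicate 2 gave 0.24. Itga2, the alpha subunit of a collagen receptor, was at 0.17, -2.50, -1.35 and -1.79 on the GFP-negative arrays. It was at -0.49, -0.86, 0.87 and -1.39 on the GFP-positive arrays, a difference of 0.90 ± 0.65 (adjusted p = 0.442). It was 0.46 without GFP-positive replicate 3, 0.53 without GFP-negative replicate 2 and 1.42 without GFP-negative replicate 1. Its range of 3.37, a 10.3-fold span, was the widest of the integrins tested. Lama3, Itga3 and Itga2 ranked the 8 arrays in the same order.

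Itgb1, the beta subunit shared by both of these receptors, had the smallest range of the members tested, 0.66 over the 8 arrays. The median range over all genes was 0.60. The brighter of its probes was at 4.39, 3.79, 4.05 and 4.03 on the GFP-negative arrays and at 3.94, 4.03, 4.29 and 3.73 on the GFP-positive arrays, a difference of -0.07 ± 0.16 (adjusted p = 0.828). The second differed by 0.07 ± 0.09, with a range over the 8 arrays of 0.35, or 1.27-fold. The sign of the first was not stable to scaling, at 0.02 with quantile normalization. The 60-base probes behind these values are printed because the Itgb1 pair are of opposite sign and that of Itga2 spans the widest range among the integrins tested. The first Itgb1 probe joins sequence across an intron, on chromosome 8 between 131250081 and 131255976 (mm9, plus strand). The second covers 131246349 to 131246408, and the Itga2 probe covers chromosome 13 from 115626714 to 115626773 (minus strand).
Itgb1, first probe: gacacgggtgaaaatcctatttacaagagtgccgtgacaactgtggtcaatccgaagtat
Itgb1, second probe: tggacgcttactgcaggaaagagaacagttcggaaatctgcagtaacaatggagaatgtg
Itga2 probe: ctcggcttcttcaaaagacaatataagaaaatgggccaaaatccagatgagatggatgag

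Itgb3, the beta subunit of the vitronectin receptor and a luminal progenitor surface marker in mouse mammary gland, followed another order of arrays. It was at 0.84, 1.16, 0.29 and 0.87 on the GFP-negative arrays and at 0.34, 0.44, 0.88 and 1.23 on the GFP-positive arrays. GFP-positive replicate 4 and GFP-negative replicate 2, the lowest arrays for several other members, were its highest. The difference was -0.07 ± 0.24 (adjusted p = 0.900), and 0.02 ± 0.30 for the dimmer probe.

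Most members had a larger difference within slide row 1 than within row 2, as the plot of differences by row shows. Within row 1, where 2 GFP-positive arrays stood against 2 GFP-negative, the members' median was 1.06. Lama3 differed by 2.78 ± 0.51, Itgb4 by 2.46 ± 0.20, Itga2 by 2.34 ± 0.52, Lamb3 by 1.11 ± 0.25 and Itga3 by 1.01 ± 0.22. Of these only Itgb4 passed (adjusted p = 0.0209), in a row where 5.32% of all genes did. Within row 2 the median was -0.26, and Lama3 (-0.35 ± 0.69), Itga2 (-0.53 ± 0.59), Lamb3 (-0.01 ± 0.42) and Itga3 (-0.26 ± 0.22) were all below 0. Itgb4 stayed positive at 0.46 ± 0.23 (adjusted p = 0.504), and 0% of all genes passed in row 2, with 10.9% at an unadjusted p under 0.05. With row as a block, which called 1.41% of all genes, 0 members passed in limma (1 at an unadjusted p under 0.05), and the adjusted p of Itgb4 was 0.126.

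**Figure D2:**
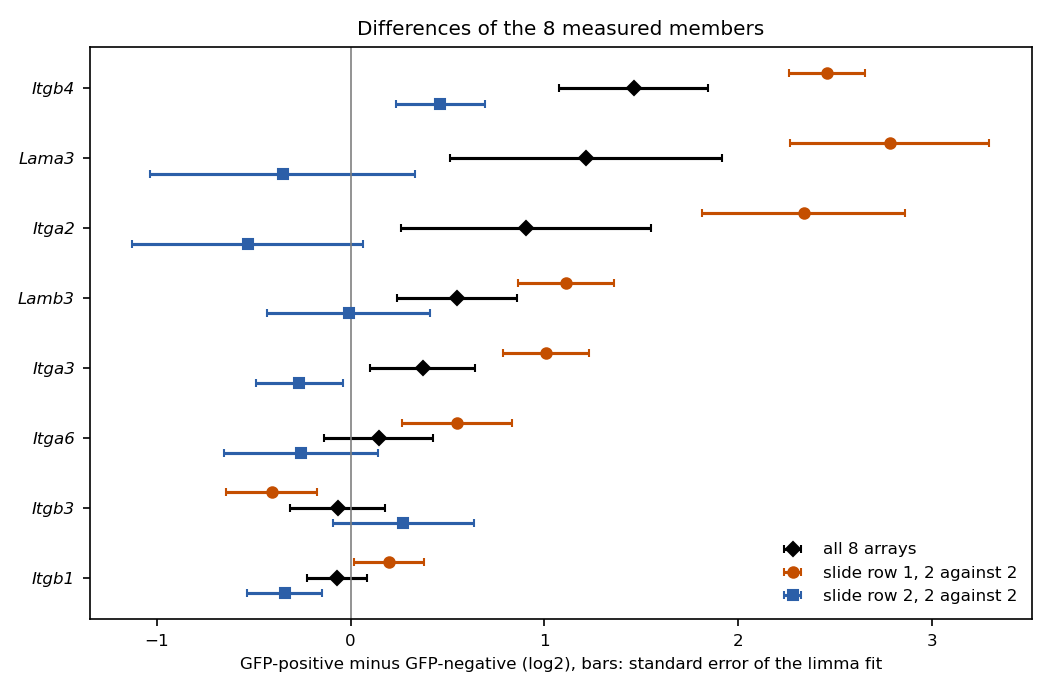
GFP-positive minus GFP-negative difference (horizontal axis, log2) of the 8 measured members over all 8 arrays and within each slide row of 2 against 2 arrays, with bars of 1 standard error. Row 1 lies to the right of row 2 for every member except Itgb3, and Itgb4 is the only member whose difference is above 0 in both rows.

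The difference between the rows was itself tested, by an interaction of group and row, a test added after the row values had been seen. It was 1.99 ± 0.33 for Itgb4 (adjusted p = 0.0549), 3.13 ± 0.98 for Lama3 (0.174), 2.87 ± 0.91 for Itga2 (0.177) and 1.27 ± 0.34 for Itga3 (0.131). None of the 8 members passed in limma, with 4 at an unadjusted p under 0.05, against 1.2% of all genes past the adjusted threshold and 19.3% at the unadjusted one. In this layout the interaction is the same contrast as replicates 1 and 3 of both groups against replicates 2 and 4. A group difference that changes with row and a difference between these replicate sets therefore cannot be told apart. Each difference within a row likewise sets GFP-positive arrays of one replicate set against GFP-negative arrays of the other.

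Across arrays, the members other than Itgb3 tended to be high or low together. GFP-positive replicate 3 ranked first or second of the 8 arrays for 7 of the 8 members, and GFP-negative replicate 1 for 5. Lama3, Lamb3, Itgb4, Itga3 and Itga2, the members with the widest ranges in these data, were averaged after centring each on its own mean. In that average GFP-positive replicate 3 stood at 1.35 and GFP-negative replicate 1 at 0.55. GFP-negative replicate 2 was at -1.24 and GFP-negative replicate 4 at -0.76, while GFP-positive replicate 4 (-0.37) and GFP-negative replicate 3 (-0.35) were close to each other. Itga6 and Itgb1 were not in this average, and both were lowest on GFP-positive replicate 4 (-0.54 and -0.30).

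A list of mesenchymal or fibroblast markers (Vim, Pdgfra, Pdgfrb, Col1a1, Col3a1 and Dcn) ran the other way over the same arrays, Dcn less closely. Relative to its own mean, Dcn was at 0.90 on GFP-negative replicate 1 and at -0.44 on GFP-negative replicate 4. Lama3 was at 0.87 and -0.94 there. All 6 were measured, all 6 had a negative difference and 0 passed in limma, with 1 (Dcn) at an unadjusted p under 0.05. Their summed level ran from 5.27 to 7.20 in the GFP-positive and from 6.53 to 7.87 in the GFP-negative arrays. It was lowest on GFP-positive replicate 3 and highest on GFP-negative replicate 2. Such a sum adds linear signals, so the brightest gene weighs most, here Vim (5.22 and 7.32 on those arrays). The average of the 6 genes, each centred on its own mean, had the same lowest (-2.35) and highest (1.74) array. Within row 1 the summed level was 6.18 and 5.27 in GFP-positive against 7.87 and 7.80 in GFP-negative cells. Within row 2 it was 6.98 and 7.20 against 6.53 and 7.32. Basal epithelial markers had 5 of 6 genes measured, all with a positive difference and 0 past the threshold in limma (2, Krt5 and Krt14, at an unadjusted p under 0.05). Their summed level ran from 6.07 to 6.78 against 5.57 to 6.32, with Myh11 not well above background on any array. Luminal epithelial markers had 5 of 5 measured, also all positive and 0 past the threshold in limma (0 at an unadjusted p under 0.05), with a summed level of 8.93 to 9.47 against 8.66 to 9.34. The part of these markers in the members' differences was not tested, and in such bulk samples fewer cells of a type and less RNA per cell cannot be told apart.

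**Figure D3:**
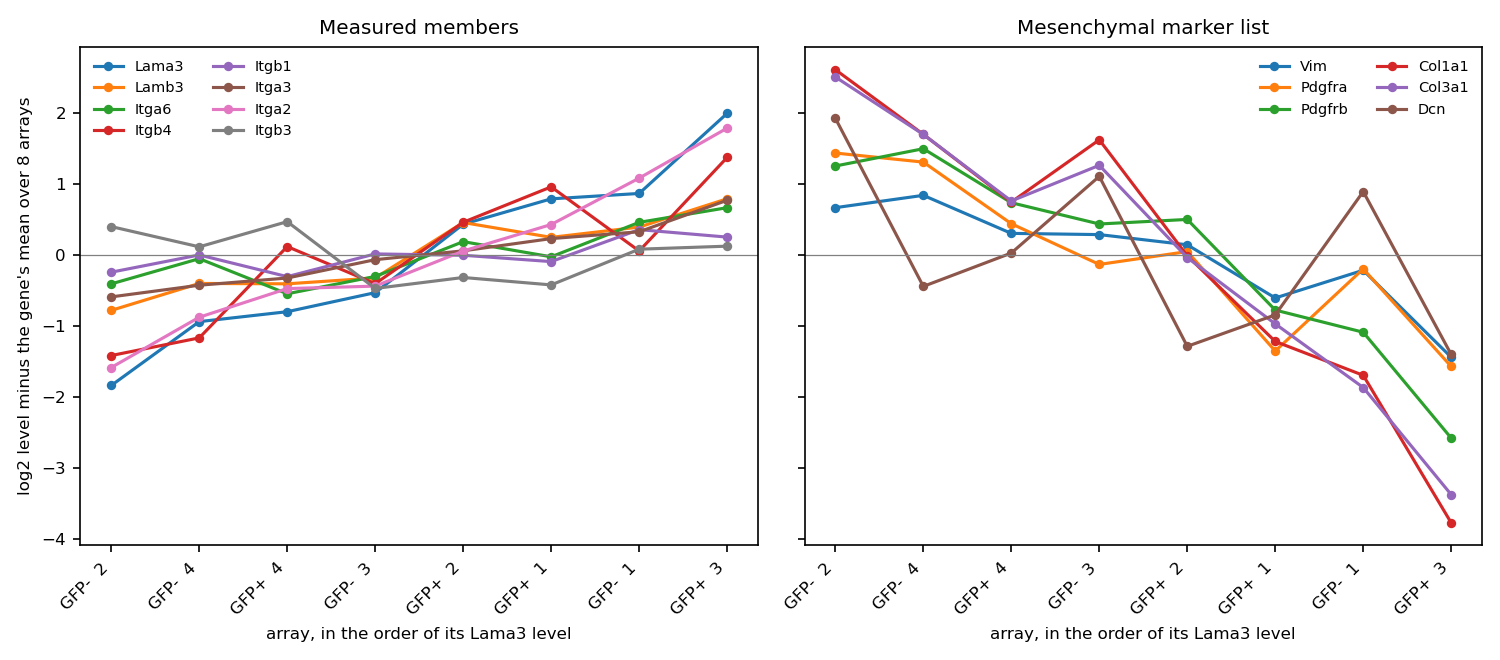
Log2 level minus the mean of the gene over the 8 arrays (vertical axis) for the measured members, left, and for the 6 mesenchymal markers, right, with arrays ordered by their Lama3 level. GFP-negative replicate 2, at the left, is low for every member except Itgb3, and GFP-positive replicate 3, at the right, is high. The mesenchymal markers run the other way, Dcn less closely on the arrays between.

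Promoter sequence is shown for 3 members: Lamb3 and Itga3, whose array order was like that of Lama3, and Itgb1, which had the smallest range of the members tested. The RefSeq promoter table (GRCm38.p6) held 5 of the 9 members (Lamb3, Itga3, Itgb1, Itga2 and Col17a1), Lamb3 and Itga3 with 2 start sites each, and the first listed is given. The 250 bases before the start site lie at chr1:193301744-193301993 (plus strand) for Lamb3. They lie at chr11:95076715-95076964 (minus strand) for Itga3 and chr8:128685404-128685653 (plus strand) for Itgb1. Capitals mark the E-box CANNTG, the element bound by many helix-loop-helix and zinc finger factors, and the GC box GGGCGG, the element of Sp1-type factors, each searched on both strands and with no overlap between them here.
Lamb3: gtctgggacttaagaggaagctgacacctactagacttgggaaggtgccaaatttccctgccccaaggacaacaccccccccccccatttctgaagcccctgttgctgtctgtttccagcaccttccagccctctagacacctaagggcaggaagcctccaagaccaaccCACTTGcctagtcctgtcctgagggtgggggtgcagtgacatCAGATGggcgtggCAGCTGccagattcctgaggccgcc
Itga3: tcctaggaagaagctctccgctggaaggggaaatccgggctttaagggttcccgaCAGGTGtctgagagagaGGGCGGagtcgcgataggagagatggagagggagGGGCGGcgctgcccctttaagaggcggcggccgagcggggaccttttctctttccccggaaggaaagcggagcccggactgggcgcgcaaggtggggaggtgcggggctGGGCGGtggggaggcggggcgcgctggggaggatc
Itgb1: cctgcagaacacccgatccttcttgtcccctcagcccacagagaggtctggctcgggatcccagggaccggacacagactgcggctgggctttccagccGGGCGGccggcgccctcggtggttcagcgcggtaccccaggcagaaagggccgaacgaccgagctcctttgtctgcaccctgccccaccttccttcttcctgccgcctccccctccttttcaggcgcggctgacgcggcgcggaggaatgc

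The Lamb3 window held 3 E-boxes, 80, 38 and 25 bases before the start site, and 0 GC boxes. That of Itga3 held 1 E-box and 3 GC boxes, and that of Itgb1 held 0 E-boxes and 1 GC box. Of 32851 such windows over all genes, 66.2% held at least 1 E-box and 32.7% at least 1 GC box, so the presence of either is not unusual. How often a window holds 3 was not counted. The AP-1 element TGANTCA, present in 6.75% of all windows, and TATAAA, present in 12.4%, were not in these 3 windows. The Itga2 window, not printed here, held no E-box, GC box, AP-1 element or TATAAA. Itga2 ranked the arrays in the same order as Lama3, for which no promoter sequence was available. A link between these elements and the array order was not tested. The windows of the second start sites of Lamb3 and Itga3 held 1 E-box each, and that of Itga3 also 1 GC box. These matches describe letters only and show no binding.

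The other genes of the pathway were taken from 5 lists of 79 genes, of which 68 were measured. Past the threshold in limma, GFP-positive cells had 2 higher and 0 lower (2 of 68, against 2.55% of all genes), and the median difference was -0.04. At an unadjusted p under 0.05 in limma, 9 of the 68 were higher and 6 lower, against 1547 higher and 2985 lower of all 19776 genes.

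Of 9 other laminin chains 6 were measured, with 3 positive and 3 negative, a median of 0.04 and 0 past the threshold in limma (Lamc1 alone at an unadjusted p under 0.05). Lamc1, the gamma chain of most other laminins, had the largest negative difference, -0.59 ± 0.18 (adjusted p = 0.107). It was at 3.56, 4.20, 3.70 and 4.12 on the GFP-negative arrays and at 3.15, 3.41, 3.08 and 3.57 on the GFP-positive arrays, which touched only where GFP-positive replicate 4 and GFP-negative replicate 1 met. Within row 1 it differed by -1.04 and passed (adjusted p = 0.0270), and within row 2 by -0.14. Lama5, the alpha chain of another basement membrane laminin, differed by -0.10 ± 0.08 (adjusted p = 0.477).

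The 8 hemidesmosome plaque and partner genes were all measured, 5 positive and 3 negative, with a median of 0.18 and 0 past the threshold in limma (3 positive ones at an unadjusted p under 0.05). The plaque linkers Plec, plectin, and Dst, dystonin, differed by -0.18 ± 0.15 and -0.13 ± 0.22 (adjusted p = 0.504 and 0.772). With the mean of its kept probes in place of the brightest, Dst differed by 0.20 ± 0.19 (adjusted p = 0.581). Cd151, a tetraspanin that associates with laminin-binding integrins, differed by 0.14 ± 0.10 (adjusted p = 0.464). Krt5, a basal keratin that anchors to the plaque, had the largest difference, 1.18 ± 0.32 (adjusted p = 0.0912), and passed with array weights (1.24, adjusted p = 0.0336). It was 0.44 with normexp (adjusted p = 0.0823), 1.84 within row 1 (adjusted p = 0.0364) and 0.51 within row 2 (adjusted p = 0.595). Its levels were -3.70, -4.42, -4.38 and -4.75 on the GFP-negative arrays and -3.04, -3.18, -2.44 and -3.88 on the GFP-positive arrays, with GFP-positive replicate 4 below GFP-negative replicate 1.

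Of 13 other integrin subunits 10 were measured, 3 positive and 7 negative, with a median of -0.32 and 0 past the threshold in limma (1 in each direction at an unadjusted p under 0.05). Itgb6, a subunit of an epithelial receptor that activates latent TGF-beta, was at -1.96, -3.45, -2.48 and -3.27 on the GFP-negative and at -1.77, -2.10, -1.26 and -2.44 on the GFP-positive arrays. Its difference of 0.90 ± 0.37 did not pass (adjusted p = 0.206). It was 1.84 within row 1 (adjusted p = 0.0272), -0.05 within row 2 and 0.54 with normexp. Itgb8, another subunit that pairs with αv, had the largest negative difference, -0.67 ± 0.51 (adjusted p = 0.468), at -0.28 with normexp. It ran from -1.03 (GFP-negative replicate 1 left out) to -0.27 (GFP-positive replicate 3 left out). The Itgb8 probe was dim, at -5.84 to -3.33, and was not well above background on every array. Itga5, the fibronectin receptor subunit, differed by -0.48 ± 0.23 (adjusted p = 0.254), at -0.31 without GFP-negative replicate 4. Itgav, which pairs with Itgb3, differed by 0.05 ± 0.15, and Itgb5 by -0.02 ± 0.24 (adjusted p = 0.880 and 0.975).

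Of 22 genes of basement membrane and anchoring matrix 17 were measured, 9 positive and 8 negative, with a median of 0.10. Col18a1, which encodes a basement membrane collagen whose terminal fragment is endostatin, was the 1 past the threshold. It was at 4.23, 4.45, 4.54 and 4.49 on the GFP-negative arrays and at 5.34, 5.29, 5.28 and 5.08 on the GFP-positive arrays. It rose by 0.82 ± 0.10, or 1.77-fold (adjusted p = 0.00530), and the groups were far apart relative to their spread. The difference was 0.84 within row 1 and 0.80 within row 2, and it passed without each of the 8 arrays in turn (adjusted p from 0.0100 to 0.0309). With arrays scaled to their medians, which lowers all differences by 0.12, it was 0.70 and did not pass (adjusted p = 0.0812). Fras1, an epithelial basement membrane protein of the Fraser complex, had the largest negative difference, -1.39 ± 0.49 (adjusted p = 0.147), at -2.42 within row 1 (adjusted p = 0.0187), -0.36 within row 2 and -0.47 with normexp. The Fras1 probe was dim, at -5.81 to -3.07, and was not well above background on every array.

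Of 27 integrin activators, adaptors and kinases, all measured, 11 were positive and 16 negative, with a median of -0.05. Ptk2b, the focal adhesion kinase relative PYK2, was the 1 past the threshold. It was at 0.59, -0.05, 0.34 and 0.33 on the GFP-negative arrays and at 1.39, 1.22, 1.50 and 1.04 on the GFP-positive arrays, so the groups did not overlap. It rose by 0.99 ± 0.15, or 1.98-fold (adjusted p = 0.0196), with 1.31 within row 1 and 0.67 within row 2. It did not pass without GFP-positive replicate 1 or 3 or without GFP-negative replicate 3 or 4 (adjusted p from 0.0580 to 0.0826), nor without the filter on dim probes (0.0766). Fermt3, a kindlin of blood cells, had the largest negative difference, -1.12 ± 0.40 (adjusted p = 0.153), at -0.16 within row 1, -2.08 within row 2 (adjusted p = 0.353) and -0.30 with normexp. The Fermt3 probe was dim, at -5.96 to -3.26, and was not well above background on every array.

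**Figure D4:**
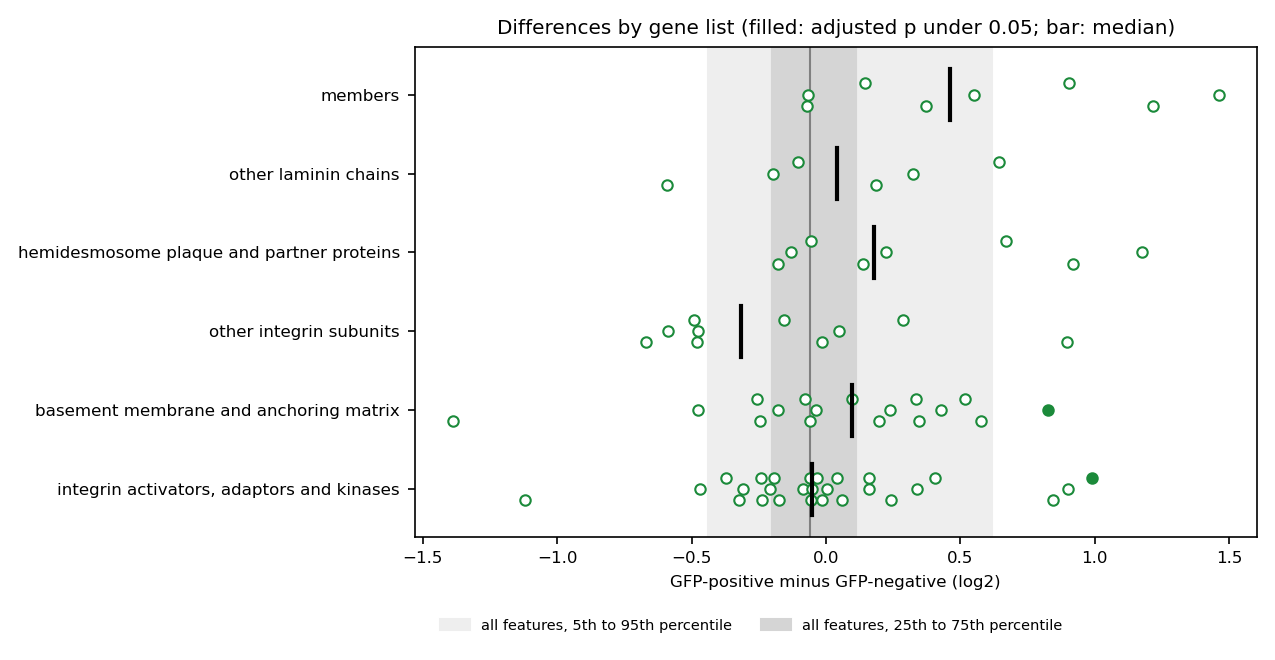
GFP-positive minus GFP-negative difference (horizontal axis, log2) of each measured member and each measured gene of the 5 lists, with a bar at the list median, filled points past an adjusted p of 0.05 and grey bands for the central percentiles of all 19776 genes. Col18a1 and Ptk2b are the 2 filled points, and the members' median of 0.46 lies to the right of that of each other list.

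As a description of likeness, the genes with a reference symbol whose levels followed Lamb3 most closely over the 8 arrays, by Pearson correlation, were Hras (0.993), Fam83g (0.987) and Fam83h (0.984). Those closest to Itgb4 were Ankrd22 (0.995), Ly6a (0.994) and Tlr3 (0.994). These are the highest values among the 13247 genes with such a symbol, and none of the 6 genes passed the threshold between GFP-positive and GFP-negative cells in limma. Ankrd22 differed by 1.64 ± 0.38 (adjusted p = 0.0640) and Ly6a, which encodes the surface antigen Sca-1, by 0.83 ± 0.20 (adjusted p = 0.0722).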

How the data were processed

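Each deposited file held the intensity values of 1 array from Agilent Feature Extraction, version 10.7.3.1 per the file headers, with probe positions on mm9 and the processed signal already corrected for background. The sources used here do not give the authors' later steps. Of 62976 spots 59305 were not controls; 106 to 186 outlier spots per array were left out, and no spot was saturated. The log2 processed signal was set relative to the 75th percentile of each array, and spots of 1 probe were averaged. Each gene was represented by its brightest probe among 27591 well above background on at least 4 of 8 arrays. RefSeq symbols (GRCm38.p6) were found for 49.4% of probes, and other probes kept the name in the file. The exon or UTR of each probe was not analysed here.

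GFP-positive minus GFP-negative was fitted on 19776 genes by lmFit and eBayes of limma 3.58.1 in R 4.3.3 (two-sided, without a block), with Benjamini-Hochberg adjustment over all genes. The fit was tried before use on simulated data with independent noise for each gene and array. It recovered 30% of changes of 0.5 and 70% of changes of 1 (log2). The changed genes were drawn from all genes, whose median range was 0.60. These shares therefore need not hold for members that spread as widely as Lama3 (range 3.83). The simulation held no variation shared between genes, so it gives no error rate for these data. Alternatives were normexp (offset 50), quantile and median scaling, other filters, row and replicate blocks, array weights, a robust prior, and leaving out each array. Precision is limited by the number of arrays, and p-values measure the spread between these arrays. The members and lists were chosen with earlier results of these data known. Named from the lists were genes past the threshold, the largest rise and fall of each list, and a set of genes whatever their result; some of these genes are not reported here.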

Additional observations from a re-analysis of the deposited data

How the results depend on the processing

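The count of 0 members past the threshold became 1, Itgb4, within slide row 1 (2.46), with array weights (1.59) and with the replicate number as a block (1.46, adjusted p = 0.0481, in a fit that called 1.09% of all genes), and stayed at 0 in the other settings and without each array. Deviations of same-numbered arrays from their group means correlated at -0.03, 0.07, 0.02 and 0.18, so the numbers were not taken to pair the arrays. None of the arrays correlated best with its own number. The highest values joined different numbers: GFP-positive 4 with GFP-negative 2 (0.65), 3 with 1 (0.60), 1 with 3 (0.43) and 2 with 4 (0.34). For the members the replicate block still mattered. With it the standard error fell from 0.38 to 0.19 for Itgb4 and from 0.70 to 0.53 for Lama3. It also fell for Itga2, Itga3 and Lamb3, was level for Itgb1, and rose for Itga6 and Itgb3. Of the member probes, 1 passed within row 1 (5.32% of all genes) and 1 with array weights (9.08% of all genes), against 0. Of the list genes, 2 passed, where 2.55% of all genes did. The count was 1 with median scaling (1.03% of all genes), 1 without the filter (0.435%), 11 within row 1 (5.32%) and 0 within row 2 (0%). It was 1 with the replicate block (1.09%), where Col18a1 lost its call (adjusted p = 0.0545), and 8 with array weights (9.08%). Leaving out each array gave 1 to 2 (0.764% to 2.15% of all genes). The share of all calls that were higher was 71.3%, against 54.0% with normexp, 81.5% with quantile, 44.1% with array weights, 46.2% with the trend and robust prior and 89.7% with median scaling, which shifted the median of all genes by -0.12.

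Signs turned as follows, and the cause was not tested. With normexp they were Itgb5 (0.0052) and the dimmer Itgb3 probe (-0.026). With quantile normalization they were Itgb1 (0.025), Lama5 (0.0075), Itgb5 (0.084) and that Itgb3 probe (-0.024). With median scaling they were Itgav (-0.075), the dimmer Itgb1 probe (-0.050) and the Itgb3 probe (-0.10). Within row 1 they were Itgb1 (0.20), Lama5 (0.037) and the Itgb3 probe (-0.46). Within row 2 they were Lama3 (-0.35, other probe -0.21), Lamb3 (-0.0094), Itga6 (-0.26, other probe -0.24), Itga3 (-0.26), Itga2 (-0.53), Itgb3 (0.27), Itga5 (0.027), Itgb5 (0.52), Itgb6 (-0.045), Itgb8 (0.051) and the dimmer Itgb1 probe (-0.018). With array weights they were Itgav (-0.014) and the Itgb3 probe (-0.17), and with the mean of all probes Itgb1 (0.0011) and Dst (0.20). Leaving out each array gave -0.053 to 0.35 for Itga6 (other probe -0.052 to 0.42), -0.17 to 0.038 for Itgb1, -0.24 to 0.061 for Itgb3 (other probe -0.14 to 0.28), -0.27 to 0.054 for Dst, -0.067 to 0.10 for Itgav and -0.20 to 0.16 for Itgb5.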
